A study of Danio rerio with 4 samples.

Results

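Keratins are the proteins of the intermediate filaments that give epithelial cells their mechanical strength. Each filament is built from a type I and a type II keratin in pairs, so that a cell's keratin make-up depends on which genes of the 2 types it expresses together. Stratified epidermis and simple, single-layered epithelia use different pairs, and epidermis that closes a wound is known in several vertebrates to change its keratins. Measured here were 10 zebrafish (Danio rerio) keratin genes of 32434 genes counted in fins. Of these, 3 were taken by Ensembl gene ID (krt5, ENSDARG00000058371; krt91, ENSDARG00000036830; krt98, ENSDARG00000044973) and 7 by gene name (krt4, krt8, krt15, krt18a.1, krt18b, krt93 and krt94). All 10 had a row in the tables and all 10 passed the filter on low counts.

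RNA was sequenced from whole fins of wild type fish of strain EK, with 2 pools of regenerating fins and 2 pools of uninjured fins, each of 10 fins. Regenerating fins had been cut back with razor blades to 50% of their length and were collected 4 days after amputation, and uninjured fins had received no treatment. The libraries, of 50-base single-end reads, held 47858392 and 48247042 counts for regenerating and 43836649 and 34290386 for uninjured fins. Values below are CPM, counts scaled to a common library size (by trimmed mean of M values, TMM, and so not corrected for gene length), and fold changes are regenerating over uninjured. Each library is RNA of all fin tissues mixed, so fewer epidermal cells and less keratin RNA per cell cannot be told apart. The pools are not stated to come from separate fish, so p-values cannot be taken to measure the spread between fish. They rest on the spread between these pools, moderated toward the trend over genes of like abundance.

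The 10 keratins held a smaller part of the reads in regenerating fins. They took 5.36% and 5.02% of all counts in the regenerating pools, against 12.9% and 11.4% in the uninjured pools. The mean share was 5.19% ± 0.242 in regenerating and 12.1% ± 1.08 in uninjured fins (SD, n = 2 pools each), a ratio of 0.428, and the groups did not overlap. With 2 pools against 2, an exact two-sided permutation test cannot give a p below 0.3333, so no test is given for shares. The change was not the same for every keratin. The test was edgeR's quasi-likelihood test, with p-values adjusted by Benjamini and Hochberg's method across 25594 genes and calls made at 0.05. It called 4 of the 10 higher and 3 lower, and 3 did not pass. Of all genes tested it called 59.6%, with 29.5% higher and 30.0% lower. When libraries were scaled to total counts alone, log2 fold changes over all genes shifted by a median of 0.21. Then 4 of the 10 were higher and 5 lower, against 8941 genes higher and 5524 lower in all. The median log2 fold change of the 10 was -0.65, against -0.02 over all genes tested. The 2 groups of pools did not overlap for 9 of the 10, and for 81.3% of all genes tested.

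**Figure D1:**
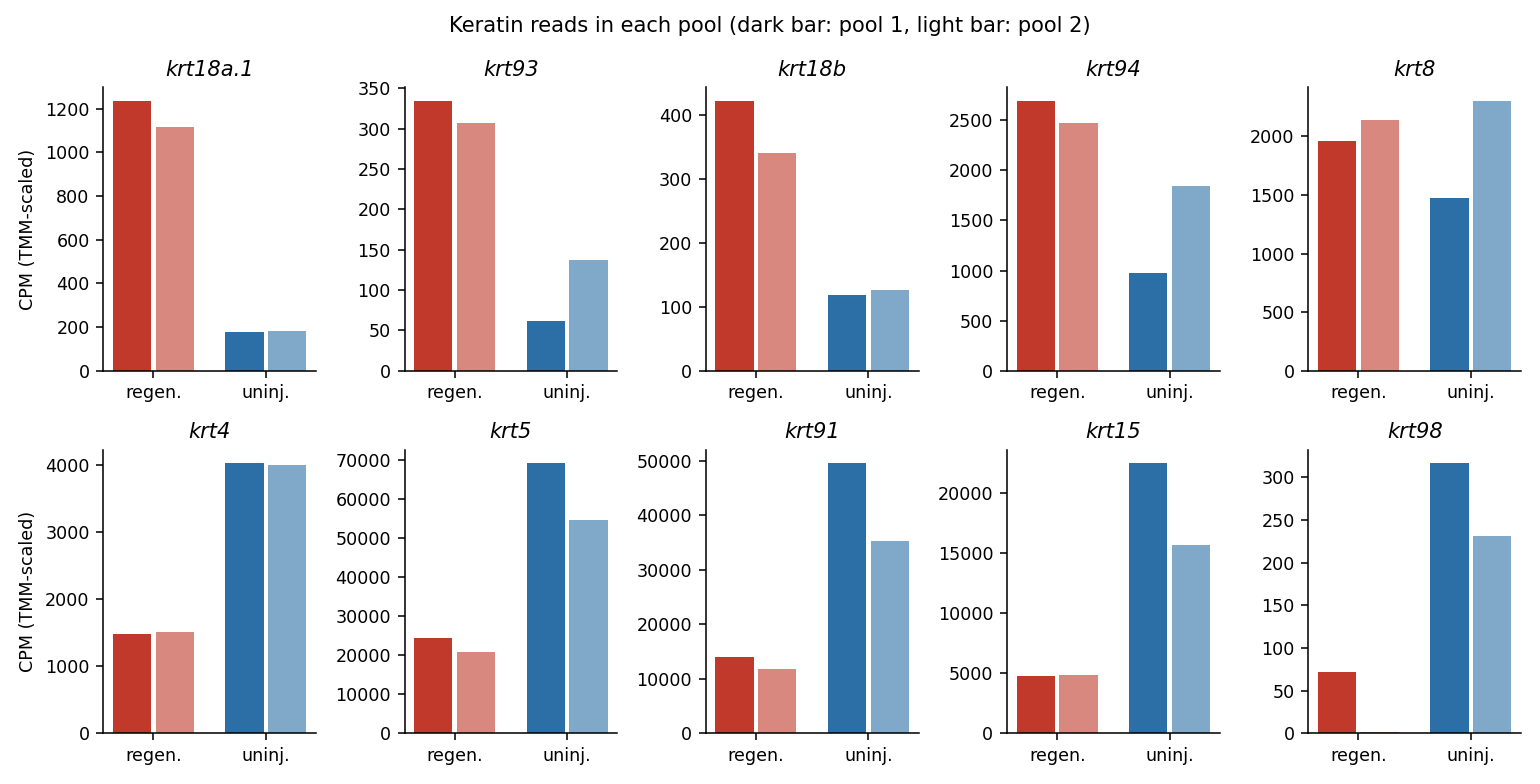
Bars give the TMM-scaled CPM of each of the 10 keratins in the 2 regenerating pools (red) and the 2 uninjured pools (blue), with pool 1 dark and pool 2 light and an axis of its own for each gene. krt18a.1, krt93, krt18b and krt94 stood higher in both regenerating pools, krt8 overlapped, and the 5 keratins of the lower row stood lower in both regenerating pools.

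krt5, a type II keratin, held the most reads of any gene in all 4 libraries. It stood at 24334 and 20881 CPM in regenerating pools 1 and 2, against 69109 and 54612 CPM in uninjured pools 1 and 2. Both regenerating pools lay below both uninjured pools, and the fitted log2 fold change was -1.45 ± 0.70 (SE), short of the threshold (edgeR quasi-likelihood, adjusted p = 0.108). The SE of the fit was larger than that of the 4 pools by themselves: the difference of mean log2 CPM was -1.45 with an SE of 0.20 from the pools alone. For krt91, krt4, krt18a.1 and krt15 the SE of the fit was also the larger, and for krt18b both were 0.16. The reverse held for krt98 (2.96 from the pools alone, 1.23 in the fit), krt93 (0.59 and 0.32), krt94 (0.47 and 0.32) and krt8 (0.33 and 0.28). The quasi-dispersion, a factor by which the test multiplies the variance that its count model gives, was 9.90 for krt5, and the trend over genes of its abundance stood at 12.8. The call depended on the method, since DESeq2's Wald test gave an adjusted p of 9.27e-16 and edgeR's legacy estimation an adjusted p of 0.0128, at log2 fold changes of -1.43 and -1.45.

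krt4, a type II keratin known as a marker of the superficial cell layer of zebrafish skin, fell by 1.42 ± 0.26 on the log2 scale (edgeR quasi-likelihood, adjusted p = 0.00164). It stood at 1481 and 1509 CPM in regenerating pools, against 4019 and 4001 CPM in uninjured pools. Its pools were nearly identical within each group, and the decrease was 2.68-fold.

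krt91 and krt15 fell with it. krt91 stood at 13979 and 11731 CPM in regenerating pools, against 49514 and 35190 CPM in uninjured pools. Its log2 fold change was -1.72 ± 0.61 (edgeR quasi-likelihood, adjusted p = 0.0390). That call was lost when either regenerating pool was left out, with adjusted p-values of 0.150 without pool 1 and 0.198 without pool 2. krt15, whose mammalian namesake is a keratin of basal keratinocytes, stood at 4741 and 4872 CPM in regenerating pools, against 22438 and 15672 CPM in uninjured pools. It fell 3.96-fold (log2 -1.99 ± 0.46, edgeR quasi-likelihood adjusted p = 0.00574), and without regenerating pool 1 the adjusted p was 0.0545. In the uninjured fins krt5, krt91 and krt15 all stood higher in pool 1 than in pool 2, by 1.27, 1.41 and 1.43 times.

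krt98 differed between the 2 regenerating pools more than between the groups. It had 3610 counts in regenerating pool 1 and 62 in regenerating pool 2, against 12066 and 7870 counts in the uninjured pools, or 72.1 and 1.16 CPM against 317 and 231 CPM. After scaling, regenerating pool 1 stood 62.1 times above pool 2, with an exact 95% interval of 48.3 to 81.1 that covers counting error only. The same ratio in uninjured fins was 1.37. Of 11464 tested genes with a mean of at least 10 CPM in regenerating fins, krt98 was the only one whose regenerating pools differed 5-fold or more, and the median gene differed 1.08-fold. This ranking over all genes was chosen after the krt98 values were seen. The fit gave krt98 a log2 fold change of -2.90 ± 1.23, which did not pass (edgeR quasi-likelihood, adjusted p = 0.0708). From the pools alone, the difference of mean log2 CPM was -4.86 with an SE of 2.96. Without regenerating pool 1 the log2 fold change was -7.87 and without regenerating pool 2 it was -1.92, so the size rests on which pool is used. Both regenerating pools lay below both uninjured pools.

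**Figure D2:**
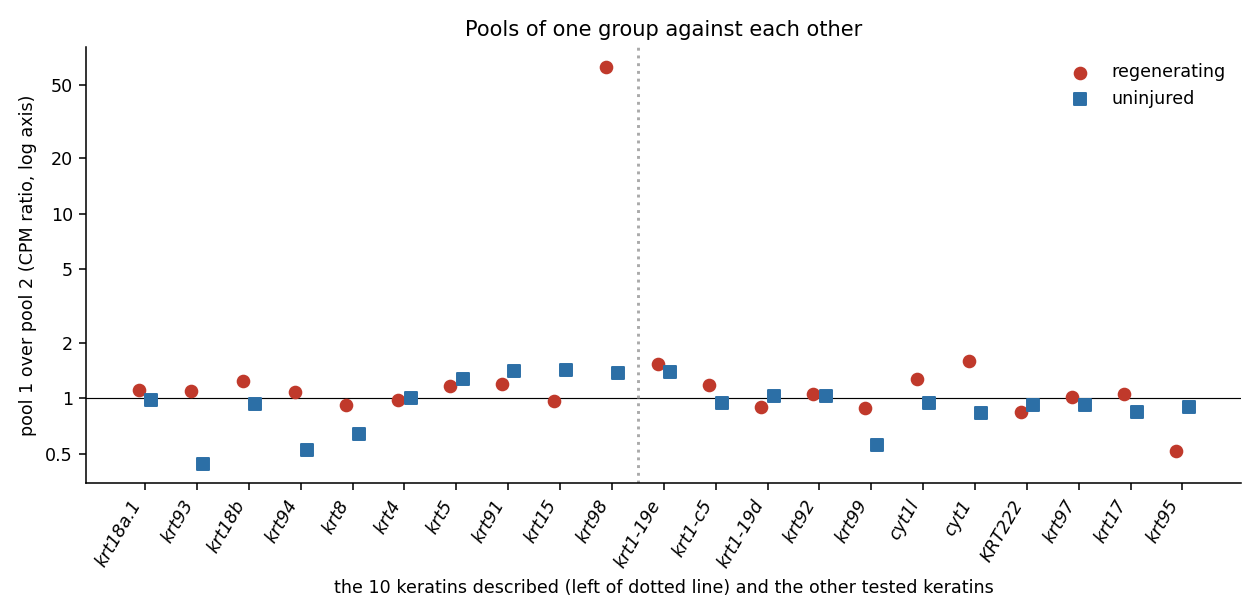
Each point is the CPM of pool 1 divided by that of pool 2 on a log axis, for regenerating (red circles) and uninjured (blue squares) fins, for the 10 keratins (left of the dotted line) and the other tested keratins. krt98 stands alone at 62.1 in regenerating fins, and krt93, krt94 and krt8 lie lowest of the 10 in uninjured fins, at 0.444, 0.527 and 0.640.

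Of the simple-epithelium keratins, 2 rose and 1 did not pass. Krt8 (type II) and Krt18 (type I) are the filament pair of simple epithelia in vertebrates, and zebrafish has several krt18 genes. krt18a.1 had the largest increase of the 10, 6.49-fold (log2 2.70 ± 0.18, edgeR quasi-likelihood adjusted p = 1.27e-05). It stood at 1237 and 1118 CPM in regenerating pools, against 179 and 184 CPM in uninjured pools. krt18b rose 3.13-fold (log2 1.65 ± 0.16, edgeR quasi-likelihood adjusted p = 6.86e-05), to 423 and 342 CPM in regenerating pools, against 118 and 126 CPM in uninjured pools. Both genes were called in the same direction under all 12 other settings tried.

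krt8 did not pass the test. It stood at 1964 and 2138 CPM in regenerating pools, against 1475 and 2303 CPM in uninjured pools, and the regenerating values lay between the uninjured ones. Its log2 fold change of 0.12 ± 0.28 (edgeR quasi-likelihood, adjusted p = 0.732) turned to -0.16 when uninjured pool 1 was left out. Ratios of counts within a library do not depend on scaling. The ratio of krt8 to krt18a.1 counts was 1.59 and 1.91 in regenerating pools, against 8.23 and 12.5 in uninjured pools. The ratio of krt4 to krt18b counts was 3.50 and 4.42 in regenerating pools, against 34.1 and 31.7 in uninjured pools. Both ratios use the same counts as the fold changes given above and are no separate support for them. These ratios compare reads, which also depend on transcript length, and are not ratios of molecules.

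krt93 and krt94 rose as well. krt93 stood at 334 and 306 CPM in regenerating pools, against 61.1 and 138 CPM in uninjured pools, a 3.23-fold increase (log2 1.69 ± 0.32, edgeR quasi-likelihood adjusted p = 0.00222). krt94 stood at 2696 and 2476 CPM in regenerating pools, against 974 and 1847 CPM in uninjured pools, a 1.83-fold increase (log2 0.87 ± 0.32, edgeR quasi-likelihood adjusted p = 0.0452). The regenerating pools of both genes lay close together and above both uninjured pools, while uninjured pool 2 stood 2.25 times above pool 1 for krt93 and 1.90 times for krt94. The krt94 call was close to the threshold. It was lost with DESeq2 (adjusted p = 0.102), with no filter on low counts (adjusted p = 0.0512), with a filter of at least 10 CPM in 2 libraries (adjusted p = 0.0692) and without either regenerating pool or uninjured pool 1 (adjusted p = 0.0809 to 0.125).

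The uninjured pools differed in their keratins in opposite directions. krt93, krt94 and krt8 stood higher in uninjured pool 2, by 2.25, 1.90 and 1.56 times, and krt15, krt91, krt98 and krt5 stood higher in uninjured pool 1. krt4, krt18a.1 and krt18b were within 1.07 times of each other in the 2 uninjured pools. The sizes of these differences, and the sums below, depend on the TMM scaling. As shares of all counts the directions above were the same, and krt5 held 6.01% and 5.43% in uninjured pools 1 and 2. By that measure krt4 (0.349% and 0.398%), krt18a.1 (0.0156% and 0.0182%) and krt18b (0.0103% and 0.0125%) stood higher in pool 2. The summed level of 9 basal epidermal markers was 7411 and 7195 CPM in uninjured pools 1 and 2 and that of 7 superficial markers 9393 and 9439 CPM. The other lists went both ways. Mesenchyme and blastema genes (1308 and 1167 CPM) and macrophage genes (85.3 and 64.6 CPM) stood higher in pool 1. Wound epidermis genes (546 and 591 CPM) and endothelial markers (54.3 and 62.3 CPM) stood higher in pool 2, as did the next 2 lists. The sum of 16 genes that anchor keratin filaments was 12296 and 13996 CPM, and that of 6 mucous cell and ionocyte markers 374 and 473 CPM. Single markers differed more than the basal and superficial sums, and TP63 stood 1.20 times higher in pool 1 than in pool 2. Across 11091 genes with a mean of at least 10 CPM in uninjured fins, the median gene differed 1.11-fold between these pools, and 1 gene in 100 differed by 2.03-fold or more.

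**Figure D3:**
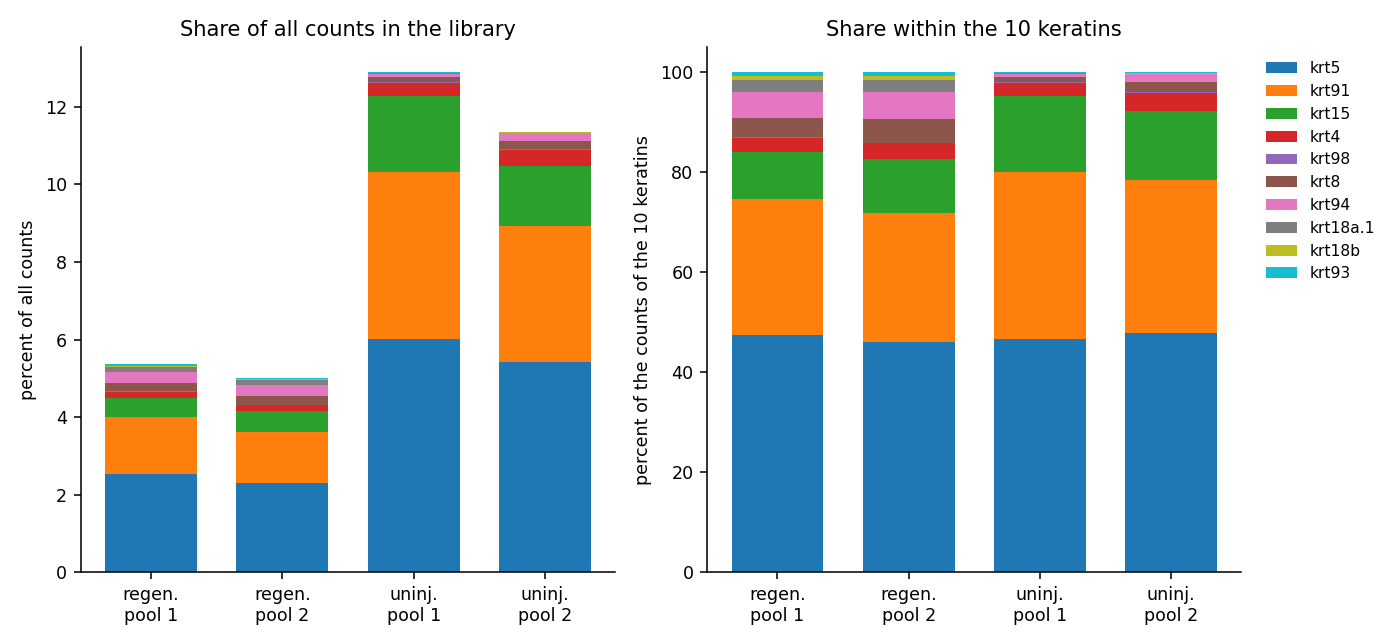
Stacked bars give each keratin's percent of all counts in a library (left) and its percent of the summed counts of the 10 keratins (right), in the 2 regenerating and then the 2 uninjured pools. The total falls to 5.02% to 5.36% in regenerating pools against 11.4% to 12.9% in uninjured pools, while krt5 keeps 46.0% to 47.8% of the keratin counts in all 4 libraries.

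Within the counts of the 10 keratins, the shares of krt5 and krt4 differed by less than the spread between pools. krt5 held 46.7% ± 1.03 in regenerating and 47.2% ± 0.811 in uninjured fins, and krt4 held 3.11% ± 0.309 and 3.11% ± 0.557 (SD, n = 2 pools each). krt91 held 26.6% ± 1.002 in regenerating and 32.1% ± 1.85 in uninjured fins, and krt15 held 9.99% ± 1.05 and 14.4% ± 1.01. The shares of krt8, krt18a.1 and krt18b together were 7.07% and 7.93% in regenerating pools, against 1.20% and 2.29% in uninjured pools. krt94 made up 5.36% ± 0.140 of the keratin counts in regenerating and 1.14% ± 0.678 in uninjured fins. krt8, whose CPM overlapped between the groups, held 4.27% ± 0.623 of the keratin counts in regenerating and 1.51% ± 0.721 in uninjured fins. Of the shares given here, those of krt5 and krt4 overlapped between the groups and the others did not. Shares of a sum are not independent, since a smaller share of one keratin raises those of the others.

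The other tested genes with a keratin name were lower or did not pass. Of 12 further rows with a keratin name (krt names, cyt1 and cyt1l), 11 were tested, 9 were lower, 0 were higher and 2 did not pass (edgeR quasi-likelihood, adjusted). The background of genes called lower was 30.0%, and the median log2 fold change of the 11 was -1.58. At an unadjusted p under 0.05, 0 of the 11 were higher by edgeR, and DESeq2 called 0 higher. KRTCAP2, which such a name search also finds, is no keratin and was left out. Only 64.0% of the genes had a symbol, and a keratin gene without one would be missed by this search.

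krt1-19e, also named krtt1c19e and known as a keratin of basal epidermal cells in zebrafish, had the largest decrease of the called keratins. It stood at 373 and 244 CPM in regenerating pools, against 3675 and 2643 CPM in uninjured pools (log2 -3.36 ± 0.32, edgeR quasi-likelihood adjusted p = 5.79e-05). cyt1 and cyt1l, type I keratins first described in the outer layer of the embryo, fell by 1.51 ± 0.30 and 1.58 ± 0.25 on the log2 scale. krt92 fell by 1.70 ± 0.21, krt1-19d by 1.71 ± 0.16 and krt97 by 0.90 ± 0.20. krt17, whose mammalian namesake is known as a keratin induced in wounded skin, stood at 2052 and 1936 CPM in regenerating pools, against 2820 and 3346 CPM in uninjured pools. Its log2 fold change of -0.63 ± 0.25 did not pass (edgeR quasi-likelihood, adjusted p = 0.0615), nor under 8 of the 12 other settings. It passed under the other 4, among them DESeq2's Wald test (adjusted p = 3.72e-04). It also passed with edgeR's legacy quasi-likelihood estimation (adjusted p = 0.0364) and with the filter of at least 10 CPM in 2 libraries (edgeR quasi-likelihood, adjusted p = 0.0197). krt18a.2, a second krt18a gene, was too low to test, at 4 and 8 counts in the regenerating pools and 1 and 0 in the uninjured pools.

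**Figure D4:**
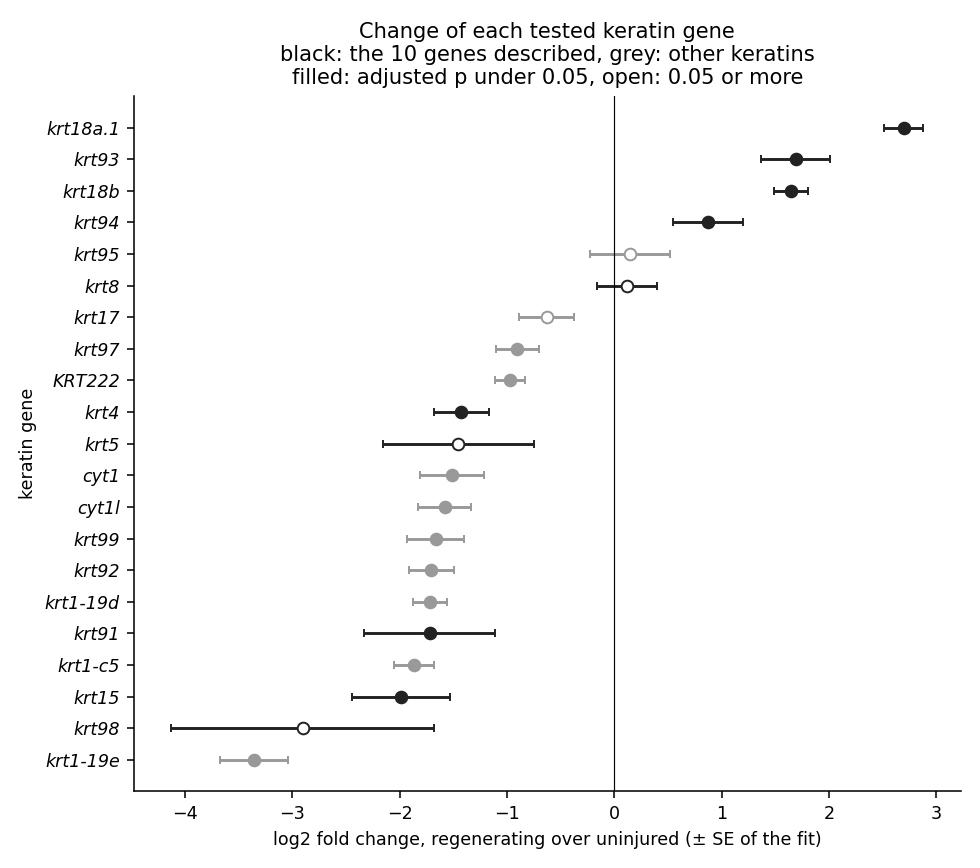
Points give the log2 fold change, regenerating over uninjured, with the SE of the fit, for the 10 keratins (black) and the 11 other tested keratins (grey), filled where the adjusted p was under 0.05. The 4 filled points above 0 are krt18a.1, krt93, krt18b and krt94, and krt98, krt5 and krt91 have the longest error bars.

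Some keratin genes that neighbour each other moved in opposite directions. In the gene order of RefSeq's zebrafish assembly GRCz12tu, matched by symbol, krt93, krt94, krt98, krt15 and krt99 follow each other with 0 other protein-coding genes between them. In that row krt93 and krt94 rose, krt15 and krt99 fell and krt98 did not pass. krt5, krt8 and krt18a.1 likewise follow each other, with log2 fold changes of -1.45, 0.12 and 2.70. krt4 and krt18b, which fell and rose, are separated by 1 other gene. krt91 ends a row with krt1-19d, krt1-19e, krt92, cyt1l, cyt1 and krt17. Of these 7 genes, 6 fell and krt17 did not pass, where 30.0% of all genes tested were lower. The krt91 call was lost under a replicate block and, as given above, without either regenerating pool. Neighbouring keratin genes can be similar in sequence, and how the counting treated reads that match more than 1 of them is not given in the sources used here, so the values of close copies are uncertain. The files were made on an earlier build, Zv9, and no coordinates were used.

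Markers of the epidermis as a whole were lower in the same libraries. Of 9 basal epidermal markers, 6 fell, 2 rose and lamb4 did not pass, where 30.0% of all genes tested were lower and 29.5% higher. Only 1 was higher under a replicate block or without either regenerating pool. Their summed level was 3894 and 3721 CPM in regenerating pools, against 7411 and 7195 CPM in uninjured pools. Within that sum, col17a1b stood at 1748 and 1608 CPM in regenerating pools, against 1119 and 1074 CPM in uninjured pools. ITGB4, col17a1a and itga6b, parts of the hemidesmosomes that tie keratin filaments of basal cells to the basement membrane, had log2 fold changes of -2.30 ± 0.19, -2.64 ± 0.25 and -1.90 ± 0.19. In contrast, col17a1b, a paralog of col17a1a, rose by 0.61 ± 0.21 (edgeR quasi-likelihood, adjusted p = 0.0315). The col17a1b call was the one lost under a replicate block and without either regenerating pool. fras1, a basement membrane gene, rose by 1.27 ± 0.14. TP63, the transcription factor of stratified epithelia, fell to means of 201 CPM in the regenerating pools, against 402 CPM in the uninjured pools. Of 7 superficial markers, cyt1l among them, 6 fell, 0 rose (also 0 at an unadjusted p under 0.05) and icn did not pass. The summed level of these was 5191 and 5417 CPM in regenerating pools (icn alone 3368 and 3686), against 9393 and 9439 CPM in uninjured pools (icn alone 4832 and 4684). evpla (envoplakin), grhl3 and cldne had log2 fold changes of -1.63 ± 0.15, -1.38 ± 0.15 and -1.32 ± 0.17. No marker of these lists was at 0 in all libraries. Their part in the keratin results was not tested.

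Genes whose products anchor keratin filaments in desmosomes and plakin plaques were mostly lower too. evpla is in this list and also among the superficial markers above. Of 16 tested, 10 fell, 1 rose and 5 missed the threshold, against 30.0% lower and 29.5% higher among all genes tested, and the median of their log2 fold changes was -0.82. pkp3a, evpla and pkp2 fell by 1.71 ± 0.19, 1.63 ± 0.15 and 1.60 ± 0.17, while a plakophilin gene (PKP1, ENSDARG00000052705) rose by 0.54 ± 0.16, a call lost without either regenerating pool. The epiplakin gene eppk1 had a log2 fold change of -0.49 and did not pass.

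Genes of the wound epidermis and of the mesenchyme under it were mostly higher. For this and the next lists, the shares over all genes tested were 29.5% higher and 30.0% lower. Of 8 tested genes of the wound epidermis list, 6 rose, 1 fell and fgf24 did not pass, and the summed level was 2970 and 3023 CPM in regenerating pools, against 546 and 591 CPM in uninjured pools. The list named fn1b alone, which was matched without its suffix, so both FN1 genes entered. Together they held most of that sum. FN1 (ENSDARG00000006526) stood at 1682 and 1956 CPM in regenerating pools, against 214 and 271 CPM in uninjured pools. FN1 (ENSDARG00000019815) stood at 850 and 675 CPM in regenerating pools, against 105 and 111 CPM in uninjured pools. A sonic hedgehog gene (SHH, ENSDARG00000068567), LEF1 and a fibronectin gene (FN1, ENSDARG00000019815) rose by 4.05 ± 0.20, 3.51 ± 0.17 and 2.82 ± 0.18 on the log2 scale. PHLDA2 fell by 0.32 ± 0.12, a call lost under 10 of the 12 other settings. Of 11 mesenchyme and blastema genes, 8 rose, 1 fell and 2 missed the threshold. Their summed level was 9886 and 8147 CPM in regenerating pools (COL1A2 alone 8103 and 6533), against 1308 and 1167 CPM in uninjured pools (COL1A2 alone 1081 and 981). The 3 with the smallest adjusted p were both TNC genes (ENSDARG00000021948 and ENSDARG00000078362) and PRRX1 (ENSDARG00000042027), at log2 6.44 ± 0.22, 4.87 ± 0.17 and 3.04 ± 0.17, and a vimentin gene (VIM, ENSDARG00000010008) fell by 0.69 ± 0.19, a call lost without regenerating pool 2 or uninjured pool 1. Of 5 endothelial symbols listed, only 3 had a match, and these 3 rose. FLI1, plvapb and cdh5 rose by 1.79 ± 0.14, 1.62 ± 0.16 and 1.32 ± 0.33. Their sum was 204 and 161 CPM in regenerating pools, against 54.3 and 62.3 CPM in uninjured pools. cdh5 was low, at 2.16 and 1.24 CPM in regenerating pools, against 0.708 and 0.646 CPM in uninjured pools. The cdh5 call was lost without regenerating pool 1 (edgeR quasi-likelihood, adjusted p = 0.0641). Of 6 mucous cell and ionocyte markers, 4 fell, among them muc5.2 by 1.62 ± 0.24. TRPV6 and foxi3b also fell, by 0.91 ± 0.19 and 2.55 ± 0.54, and both were under 3 CPM in every group. Without uninjured pool 1 the foxi3b call was lost (edgeR quasi-likelihood, adjusted p = 0.0546) and 2 of the 6 fell. The macrophage list named marco, csf1ra and mpeg1.1. csf1ra had no match, and mpeg1.1 was matched without its suffix, so every MPEG1 gene entered. The symbols do not tell which of these is mpeg1.1. Of the resulting 4 genes, 2 rose (marco by 2.33 ± 0.25 and MPEG1, ENSDARG00000055290, by 1.46 ± 0.17) and 2 fell (1 of them MPEG1, ENSDARG00000043093, by 0.70 ± 0.13). The other that fell (MPEG1, ENSDARG00000078569) stood at 1.36 and 1.74 CPM in regenerating pools, against 14.5 and 2.61 CPM in uninjured pools, so that 1 uninjured pool carried most of the difference. Only 1 macrophage gene was lower with DESeq2 or the 10 CPM filter. These markers changed in the same libraries in which krt18a.1, krt18b, krt93 and krt94 rose, and their part in those increases was not tested.

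By level and pattern over the 4 libraries, the tested gene with a symbol nearest to krt5 was krt91, at a Euclidean distance of 1.40 in log2 CPM, followed by the translation factor gene eef1a1l1 at 3.35 and krt15 at 3.98. Their log2 fold changes were -1.72 ± 0.61, -0.65 ± 0.44 and -1.99 ± 0.46, against -1.45 ± 0.70 for krt5. eef1a1l1 did not pass (edgeR quasi-likelihood, adjusted p = 0.238), and its distance is over levels as well as changes. The nearest to krt18a.1 were the collagen gene COL6A2 at 0.59, the tubulin gene tuba5 at 0.65 and the ferritin gene fthl27 at 0.76, with log2 fold changes of 2.13 ± 0.19, 2.11 ± 0.17 and 2.00 ± 0.19. This measure is over only 4 libraries in 2 groups and says nothing of shared control.

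**Figure D5:**
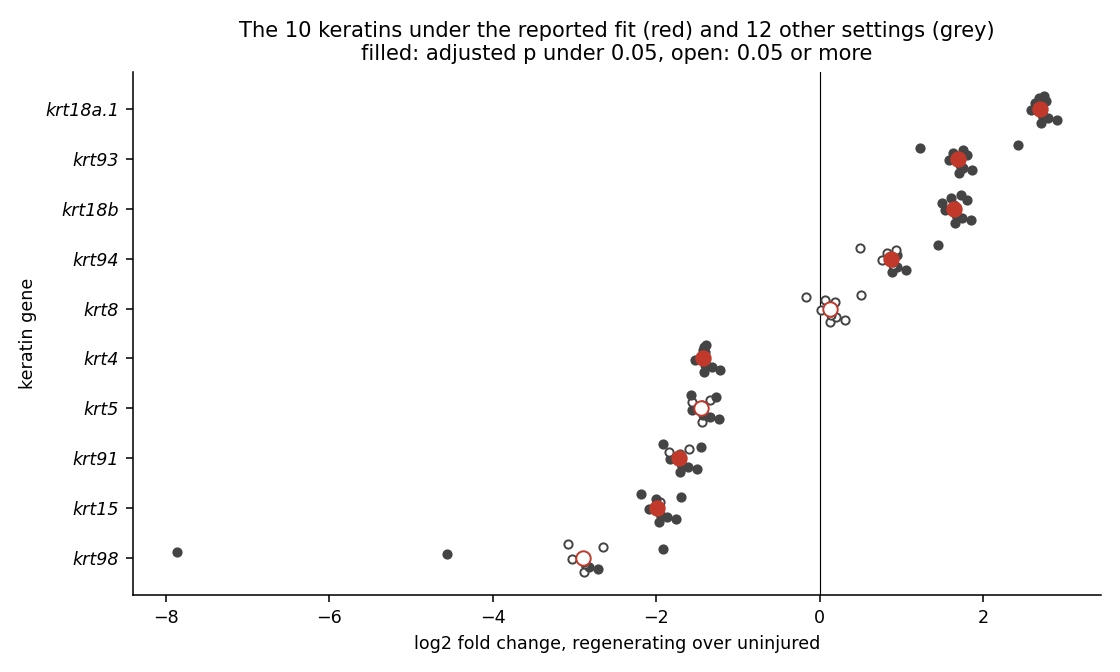
Each row shows a keratin's log2 fold change, regenerating over uninjured, under the reported fit (large red point) and under 12 other settings (small grey points), filled where the adjusted p was under 0.05. krt18a.1, krt93, krt18b and krt4 are filled throughout, krt5 is filled in 7 of the 12 other settings, and krt98 spreads from -7.87 to -1.92.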

How the data were processed

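The deposited tables, one for each group, give raw read counts for Ensembl gene IDs, which the authors had not normalized. The submitters' processing notes list CASAVA, TopHat and edgeR with build Zv9, and the column names in the file headers refer to accepted alignments. How reads were counted, with which strand setting, and what was done with reads that match several genes is not given in the sources used here.

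The tables were joined by gene ID. A table of IDs and symbols named 20769 of 32434 genes (64.0%). edgeR's filterByExpr (minimum count 10, minimum total 15) kept 25594 genes. TMM factors were 1.05 and 1.11 in the regenerating pools and 0.870 and 0.994 in the uninjured pools. edgeR's quasi-likelihood test (non-legacy estimation, group as sole term) compared the groups, with Benjamini-Hochberg adjusted p-values called at 0.05. The SE of the fit is the absolute log2 fold change divided by the square root of the test's F statistic. A floor of 3 counts was 0.0562 to 0.0881 CPM. The 2 libraries of a group differed beyond counting noise (chi-square per degree of freedom 17.6 in regenerating and 37.1 in uninjured fins), so neither looked like a library deposited again. This does not show that the pools are biological replicates. The software was edgeR 4.0.16 and DESeq2 1.42.0 in R 4.3.3, with Python 3.11.15 and matplotlib 3.10.9 for the plots.

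The 10 genes and all lists were chosen with earlier results of these data known. A list symbol was matched in any case, and where it had no match, without its paralog suffix, with every gene ID of that symbol entered. Symbols still without a match were left out. Matched were 16 of 20 keratin-anchoring, 7 of 10 superficial, 7 of 8 wound epidermis, 3 of 5 endothelial and 2 of 3 macrophage symbols. All symbols of the remaining lists had a match. Named were the 10 genes, the 7 other keratins with a mean of at least 100 CPM, of each list the best 3 called genes by adjusted p in the commoner direction and the best 1 in the other, and the 3 genes nearest to krt5 and to krt18a.1 (log2 CPM, prior count 2). Others named (krt99, krt18a.2, krt95, KRTCAP2, TP63, lamb4, col17a1b, MPEG1 (ENSDARG00000078569), FN1 (ENSDARG00000006526), COL1A2, fgf24, icn and eppk1) were chosen after their values were seen. Alternatives were other scalings, filters and dispersion estimation, DESeq2, a replicate block and leaving out each library. No sequences were analysed here.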

Additional observations from a re-analysis of the deposited data

How the results depend on the processing

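Among the 10 keratins, krt4, krt15, krt91, krt18a.1, krt18b, krt93, krt94, krt5 and krt98 kept their direction under all 12 alternatives, and krt8, which was not called, had log2 fold changes of -0.16 without uninjured replicate 1 and 0.51 without uninjured replicate 2. krt95, another keratin that was not called, was at -0.40 without regenerating replicate 2 and at 0.54 without regenerating replicate 1. The 10 had 5 lower calls in place of 3 with scaling to total counts and also 5 with totals that leave out the 10 keratins, since krt5 and krt98 then passed. Leaving out 1 library gave 3 to 4 higher and 2 to 4 lower calls among the 10, and 0 higher and 9 to 10 lower calls among the other keratins. With krt5 taken out of both the keratins and the library totals, the summed share was 2.83% in regenerating and 6.79% in uninjured fins. krt5 passed under 7 of 12 alternatives, with adjusted p-values from 9.27e-16 to 0.336. Same-numbered pools did not deviate together (r = -0.03 across genes between the pool differences of the 2 groups, with 2 pairs), so the numbers are not treated as pairs. With a replicate block 4 of the 10 were higher and 3 lower; krt91 did not pass (adjusted p = 0.142) and krt98 passed at a log2 fold change of -4.56 (adjusted p = 0.01002). Among the lists and the other named genes the remaining changes of call were not tested for a cause. The exact intervals on counts cover counting error only, and for krt5 the SE of the log2 difference was 0.70 in the fit and 0.20 from the 4 pools alone. The fit did not give the larger SE for every keratin: for krt98 it was 1.23 in the fit and 2.96 from the pools alone.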
